A study of Homo sapiens with 16 samples.

Results

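The activin system of MDA-MB-231 cells was followed through 10 genes of the 60620 gene identifiers that the count tables share. These were the activin subunit genes INHBA and INHBB, the follistatin genes FST, FSTL3 and FSTL1, the receptor genes ACVR2A, ACVR2B, ACVR1 and ACVR1B, and TGFBR3, which encodes the co-receptor betaglycan. The set was chosen by measured values, the lower mRNA levels of INHBB and FST in cells without TXNIP, so every comparison of knockout with parental cells is given for these 10 genes as a description with no test. The responses to Myc knockdown did not enter that choice and were tested.

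RNA-seq was performed on MDA-MB-231, a triple-negative breast cancer cell line, in 16 libraries from 6 groups. Untreated parental 231 cells and untreated cells with a CRISPR/Cas9 knockout of TXNIP (231:TKO) had 2 replicates each. The groups parental 231+siNT, parental 231+siMyc, 231:TKO+siNT and 231:TKO+siMyc had 3 replicates each and were harvested 48 hours after transfection of a non-targeting siRNA (siNT) or an siRNA against Myc (siMyc). TXNIP is an arrestin-family protein that limits glucose uptake, and the study asked how its loss alters transcription by Myc. The 231:TKO cells descend from clones grown out of single cells after editing, and neither the labels nor the methods say whether replicates came from separate clones, so a p-value below measures the spread between these libraries, which may be technical.

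Activins are dimers of inhibin beta subunits. INHBA encodes the beta-A subunit of activin A and INHBB the beta-B subunit of activin B. The ligand binds a type II receptor (ACVR2A or ACVR2B), which phosphorylates a type I receptor such as ACVR1B (ALK4), and the activated complex phosphorylates SMAD2 and SMAD3. Follistatin (FST) and FSTL3 bind activins outside the cell and block their access to receptors. In breast cancer cells the pathway is known for effects on growth arrest, migration and metastasis.

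Total counts per library lay between 18953668 and 59799444. TXNIP mRNA was at 276 and 277 CPM (TMM-scaled read counts relative to library size) in untreated parental 231 and at 12.7 and 46.5 CPM in untreated 231:TKO (log2 fold change -3.29, SE 0.65, adjusted p = 0.0587, edgeR). It was at 6.70 to 10.1 CPM in the 6 siRNA-treated 231:TKO libraries and at 296 CPM or more in the siRNA-treated parental libraries. MYC mRNA fell after siMyc in 231:TKO (log2 fold change -1.21, SE 0.06, adjusted p = 1.69e-11 by the edgeR quasi-likelihood test) and in parental 231 (-0.96, SE 0.09, adjusted p = 0.0297). VIM, CD44, CAV1, EGFR and AXL, markers of this mesenchymal-like line, were at 132 CPM or more in all 16 libraries. Of the markers expected to be low, ESR1 stayed at or under 0.298 CPM and PGR at or under 0.0819 CPM. ERBB2 was at 74.3 to 107 CPM, and the epithelial markers CDH1 and EPCAM were at 0.273 to 9.40 CPM and 11.9 to 32.0 CPM. Of 8 markers of immune, endothelial and stromal cells, 7 were found, and their summed level was 12.9 to 36.5 CPM per library. It was 31.1 to 33.5 CPM in untreated parental 231 and 12.9 to 18.8 CPM in untreated 231:TKO, CD3E was at 0 in 14 of 16 libraries, and the part of these markers in the results was not tested.

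Some libraries stood apart from their group. Parental 231+siNT replicate 1 and parental 231+siMyc replicate 3 deviated together from their group means (r = 0.897 over 13448 genes), and the untreated 231:TKO replicates differed strongly for several of the 10 genes. The siRNA-treated parental 231 libraries were counted on Ensembl release 104 and the siRNA-treated 231:TKO libraries on release 102, so genotype and annotation release cannot be told apart there. The tables of untreated cells hold single reads and those of siRNA-treated cells read pairs, so genotypes and treatments are compared within each kind. Levels of both kinds stand side by side only as a description, as in the ranking of genes by likeness of pattern over all 16 libraries. In bulk RNA, fewer cells expressing a gene and less RNA per cell cannot be told apart.

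The 250 bases before the RefSeq transcription starts of INHBB and FST are shown because these genes led the choice of the set, with ACVR1B beside them because its promoter was the only one of the 13 found for the 10 genes to hold CACGTG, the E-box bound by Myc-Max. Sequences are from RefSeq on GRCh38.p14, read 5′ to 3′ on the plus strand, which is the coding strand of all 3 genes, and capitals mark CACGTG.
INHBB, chr2:120345886-120346135: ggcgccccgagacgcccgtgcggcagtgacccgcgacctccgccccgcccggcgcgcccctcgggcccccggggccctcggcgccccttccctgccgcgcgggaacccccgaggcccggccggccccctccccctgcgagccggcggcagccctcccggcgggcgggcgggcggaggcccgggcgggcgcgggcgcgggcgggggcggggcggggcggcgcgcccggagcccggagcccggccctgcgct
FST, chr5:53480379-53480628: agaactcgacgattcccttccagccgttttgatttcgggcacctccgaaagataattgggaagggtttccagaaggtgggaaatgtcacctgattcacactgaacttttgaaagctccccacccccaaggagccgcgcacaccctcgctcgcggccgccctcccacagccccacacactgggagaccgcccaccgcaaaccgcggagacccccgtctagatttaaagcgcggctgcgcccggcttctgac
ACVR1B, chr12:51951449-51951698: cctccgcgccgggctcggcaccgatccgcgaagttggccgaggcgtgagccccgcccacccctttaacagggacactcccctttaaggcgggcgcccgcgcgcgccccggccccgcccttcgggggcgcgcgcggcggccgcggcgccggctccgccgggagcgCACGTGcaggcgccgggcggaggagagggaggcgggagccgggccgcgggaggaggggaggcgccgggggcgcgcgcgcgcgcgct
The INHBB window had a GC content of 89.6% with 46 CG dinucleotides, the FST window 60.0% with 20, and the ACVR1B window 82.8% with 48. The median of all 35116 RefSeq promoters was 58.0% with 11. CACGTG, which reads the same on both strands, occurred in 6.34% of all promoters of this length, and its match before ACVR1B began at -86. The letters CAGAC or their reverse complement GTCTG, the SMAD-binding element, were in none of these 3 windows but in 38.0% of all promoters. They occurred at -74 in 1 of 3 ACVR1 promoters and at -124 in a second ACVR1B promoter. These are matches of letters and do not show binding.

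INHBB (chr2:120346136-120351803, plus strand) showed the largest difference of the 10 genes. Its mRNA was at 65.6 and 68.2 CPM in untreated parental 231 and at 0.376 and 0.351 CPM in untreated 231:TKO, the latter from 11 and 10 counts. After siNT it was at 73.4, 74.4 and 80.6 CPM in parental 231 and at 0.316, 0.374 and 0.404 CPM in 231:TKO. After siMyc the values were 100.9, 101 and 104 CPM in parental 231 against 0.852, 0.898 and 0.743 CPM in 231:TKO. Every 231:TKO library thus lay far under every parental 231 library, and the replicates of each group lay close together. The log2 fold change of 231:TKO over parental 231 was -7.58 (SE 0.12) untreated, -7.72 (SE 0.14) with siNT and -6.93 (SE 0.13) with siMyc, which correspond to levels 191-fold, 211-fold and 122-fold lower.

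INHBA (chr7:41667168-41705834, minus strand) was also lower in 231:TKO, but its replicates spread widely. Untreated parental 231 had 60.8 and 58.7 CPM, whereas the 231:TKO replicates had 20.1 and 0.561 CPM, from 588 and 16 counts. The log2 fold change was -2.61 with an SE of 1.34. It was -6.80 without 231:TKO replicate 1 and -1.66 without replicate 2, so its size rests on which replicate is taken. After siNT, INHBA was at 14.0, 14.3 and 14.9 CPM in parental 231 and at 5.55, 8.53 and 7.63 CPM in 231:TKO (log2 fold change -1.02, SE 0.15). After siMyc it was at 18.5, 20.3 and 16.4 CPM against 7.13, 7.89 and 9.26 CPM (-1.17, SE 0.13), and the groups did not overlap in either state. The antisense transcript INHBA-AS1, which overlaps the locus on the other strand, was at 0.389 CPM or less in every library.

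**Figure D1:**
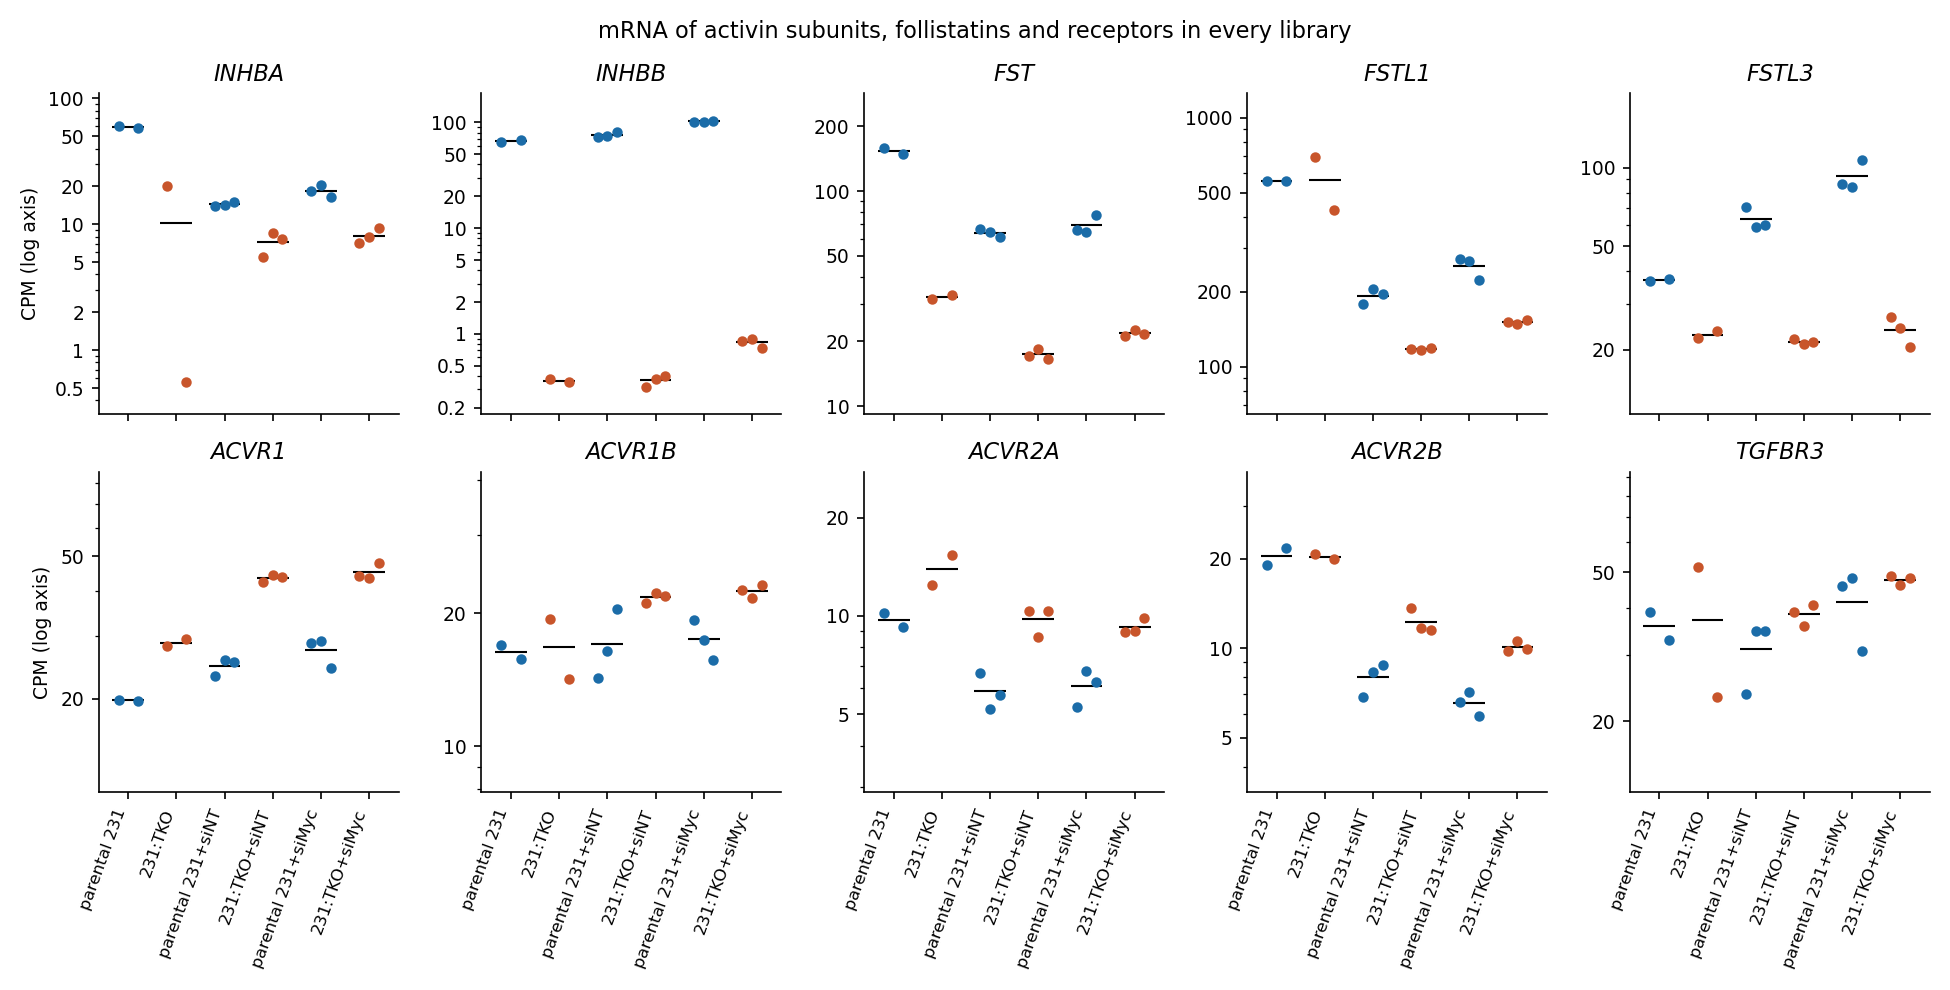
Expression of the 10 genes in every library, in CPM on log axes with a separate range per panel; points are libraries (blue, parental 231; orange, 231:TKO) and lines are group means. INHBB sits under 1 CPM in all 8 libraries of 231:TKO and above 65 CPM in all 8 libraries of parental 231, and the untreated 231:TKO replicates lie far apart for INHBA (20.1 and 0.561 CPM).

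Among the follistatins, FST (chr5:53480626-53487134, plus strand) was lower in all 231:TKO libraries. It was at 158 and 149 CPM in untreated parental 231 and at 31.4 and 32.9 CPM in untreated 231:TKO (log2 fold change -2.33, SE 0.07, or 5.01-fold lower). With siNT it was at 66.6, 64.3 and 61.3 CPM in parental 231 and 17.2, 18.5 and 16.6 CPM in 231:TKO (-1.91, SE 0.09). With siMyc the values were 66.0, 64.6 and 77.8 CPM against 21.2, 22.5 and 21.7 CPM (-1.66, SE 0.11). The groups did not overlap in any state.

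FSTL3 (chr19:676392-683392, plus strand), a follistatin-related activin antagonist, was lower as well. Untreated cells had 36.7 and 37.3 CPM in parental 231 and 22.2 and 23.6 CPM in 231:TKO (-0.77, SE 0.09). With siNT the levels were 70.3, 59.0 and 60.4 CPM against 22.1, 21.0 and 21.5 CPM (-1.58, SE 0.10), and with siMyc 86.4, 84.4 and 106.8 CPM against 26.7, 24.3 and 20.5 CPM (-1.95, SE 0.13). The groups did not overlap in any state.

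FSTL1 (chr3:120392293-120450993, minus strand) encodes a secreted glycoprotein that carries a follistatin domain. It had the highest level per length of the 10 genes in untreated cells of both genotypes. Untreated parental 231 had 557 and 556 CPM and 231:TKO had 695 and 427 CPM, which lie on either side of them (-0.06, SE 0.24). In siRNA-treated cells it was lower in 231:TKO. The siNT values were 178, 205 and 195 CPM in parental 231 and 118, 116 and 119 CPM in 231:TKO, and the siMyc values were 272, 265 and 224 CPM against 151, 148 and 155 CPM. The log2 fold change was -0.74 in both states (SE 0.09 and 0.10).

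The receptor genes differed less between the genotypes. ACVR2A (chr2:147844517-147930826), a type II receptor, was at 10.2 and 9.25 CPM in untreated parental 231 and at 12.4 and 15.3 CPM in 231:TKO (log2 fold change 0.44, SE 0.16). With siNT it was at 5.19 to 6.70 CPM in parental 231 and 8.62 to 10.3 CPM in 231:TKO (0.70, SE 0.13), and with siMyc the difference was 0.61 (SE 0.12). ACVR2B (chr3:38453890-38493142), the other type II receptor, was at 19.0 and 21.8 CPM against 20.7 and 20.0 CPM in untreated cells, where the groups overlapped (-0.08, SE 0.11). In siRNA-treated cells it was higher in 231:TKO, by 0.59 (SE 0.13) with siNT and 0.64 (SE 0.11) with siMyc.

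Of the type I receptors, ACVR1B (chr12:51951699-51997078) was at 16.9 and 15.8 CPM in untreated parental 231 and at 19.5 and 14.2 CPM in 231:TKO, with overlapping groups (-0.03, SE 0.17). It was higher in 231:TKO by 0.32 (SE 0.13) with siNT and 0.37 (SE 0.10) with siMyc. ACVR1 (chr2:157736444-157876330), which encodes ALK2, a type I receptor used mainly by bone morphogenetic proteins (BMPs), was at 19.9 and 19.7 CPM in untreated parental 231 and at 28.0 and 29.4 CPM in 231:TKO (0.46, SE 0.09). Its difference was 0.79 (SE 0.09) with siNT and 0.73 (SE 0.10) with siMyc. Its gene model measured 4480 bases in release 102 and 9842 bases in release 104, so in siRNA-treated cells the genotypes were counted on different models. The other 9 genes had the same length in both releases.

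TGFBR3 (chr1:91680343-91906335), whose product betaglycan presents TGF-beta2 and inhibins to receptors, was at 39.1 and 32.9 CPM in untreated parental 231 and at 51.4 and 23.2 CPM in 231:TKO. The 231:TKO replicates again lay on either side of the parental values (-0.02, SE 0.39). The difference was 0.28 (SE 0.14) with siNT and 0.21 (SE 0.14) with siMyc, where the groups overlapped.

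In untreated cells 6 of the 10 genes had groups that did not overlap, as did 58.7% of the 19951 genes compared, and 2 of the 10 fold changes were above 0 and 8 below. Of all 19965 genes tested in that comparison, 5.43% were called higher and 4.18% lower at an adjusted p of at most 0.05. With siNT the groups of 10 of 10 genes did not overlap, as did 51.3% of 23310 genes, with 5 genes higher and 5 lower. The edgeR test called 16.1% of all genes higher and 20.7% lower in that comparison. With siMyc it was 9 of 10 genes and 53.7% of 23561 genes, again 5 higher and 5 lower, and the test called 18.8% of all genes higher and 21.7% lower. Over the 10 genes, the log2 fold change had a median of -0.07, -0.23 and -0.27 in the 3 states, against 0.00, -0.03 and -0.01 over all genes tested. Since the contrast chose the set, nothing is read from these counts.

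**Figure D2:**
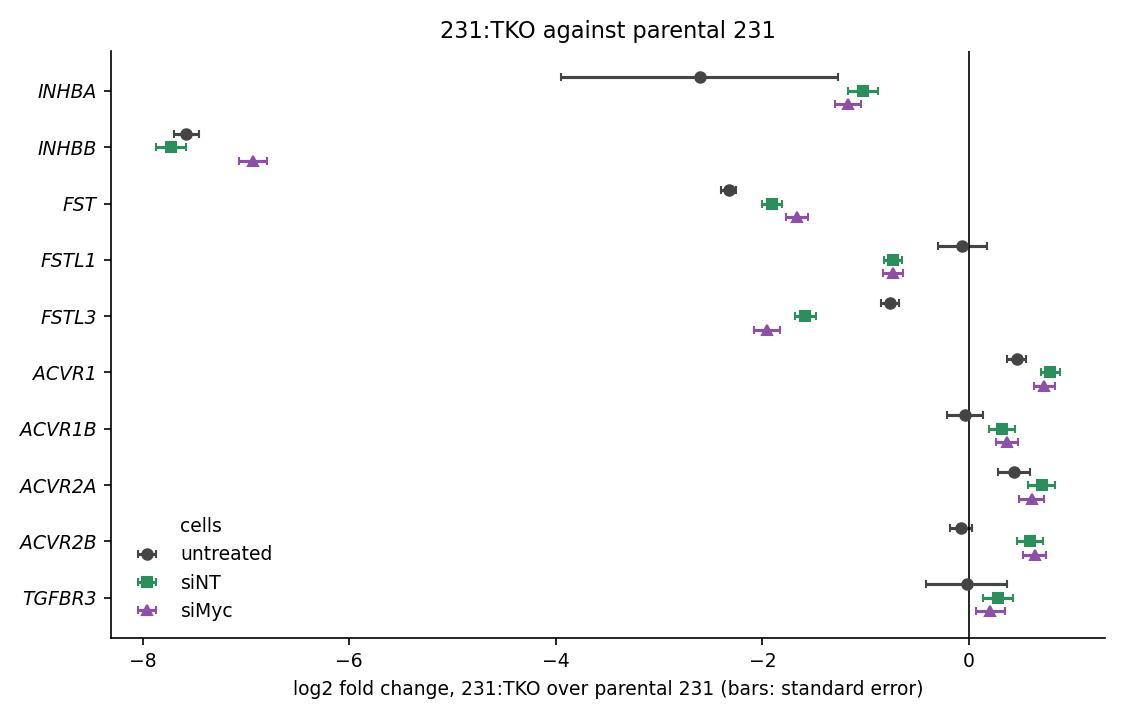
Log2 fold changes of 231:TKO over parental 231 for the 10 genes in untreated, siNT and siMyc cells; symbols are estimates of the edgeR fit and bars are standard errors, with no test. INHBB lies between -7.72 and -6.93, FST between -2.33 and -1.66, and the receptor genes between -0.08 and 0.79.

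Levels per length, in RPKM (the TMM-scaled CPM per kilobase of gene model), show how the make-up of the system differed. In untreated parental 231 the order was FSTL1 (65.7 RPKM), FST (55.7), INHBB (20.9), FSTL3 (12.2), INHBA (7.21), ACVR1 (4.42), TGFBR3 (4.19), ACVR1B (2.89), ACVR2A (1.51) and ACVR2B (1.30). ACVR1 and TGFBR3 did not differ beyond their spread (SD 0.03 and 0.52, n = 2). In untreated 231:TKO, INHBB was the lowest of the 10 (0.113 RPKM), and INHBA (1.25, SD 1.67) did not differ from ACVR2B (1.30) beyond its spread. With siNT, INHBB was the lowest of the 10 in 231:TKO (0.114 RPKM, SD 0.01, n = 3) and at 23.7 RPKM (SD 1.21, n = 3) in parental 231.

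INHBB supplied 74.3% ± 1.0 (SD, n = 2) of the summed INHBA and INHBB level in untreated parental 231. In 231:TKO the share was 4.61% in replicate 1 and 61.8% in replicate 2, which follows the INHBA levels of those libraries. It was 93.2% ± 0.12 (SD, n = 3) in parental 231+siNT and 11.7% ± 1.4 (SD, n = 3) in 231:TKO+siNT, and 93.5% ± 0.75 against 21.2% ± 3.5 (SD, n = 3 each) with siMyc. The summed subunit level was 28.1 RPKM in untreated parental 231 and 1.36 RPKM (SD 1.67) in 231:TKO. It was 25.5 against 0.987 RPKM with siNT and 34.0 against 1.24 RPKM with siMyc. The summed level of FST and FSTL3 differed less: it was 67.9 against 19.2 RPKM untreated, 44.1 against 13.4 RPKM with siNT and 55.8 against 15.8 RPKM with siMyc. The ratio of follistatins to subunits was higher in 231:TKO, at 14.0 ± 3.1 against 1.74 ± 0.18 with siNT and 12.9 ± 1.9 against 1.64 ± 0.18 with siMyc (SD, n = 3 each). In untreated cells it was 2.42 ± 0.11 in parental 231 and 59.4 ± 73.6 in 231:TKO (SD, n = 2 each), where the spread exceeds the mean. These are ratios of mRNA levels and not of proteins. Lower INHBB and FST in 231:TKO chose the set and enter these shares, sums and ratios, so nothing further is read from them.

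The genes around each member were examined as well. Around INHBB, the 70 other genes with midpoints within 10 Mb and a mean level of 1 CPM or more had a median log2 difference between 0.46 and 0.56 in each of the 8 libraries of 231:TKO, relative to the matching parental 231 mean and on the log2(CPM + 0.5) scale. INHBB itself was at -6.20 to -6.55 on that scale, which understates changes of low genes, and none of the 70 fell as far in any library. The nearest gene on the left, RALB, was at 60.4 CPM (SD 2.7) in untreated parental 231 and 89.0 CPM (SD 2.6) in 231:TKO (n = 2 each). The nearest on the right, GLI2, was at 8.03 CPM (SD 0.89) and 18.0 CPM (SD 3.3). Around FST, the median of 43 neighbours lay between -0.01 and 0.18, where FST itself was at -2.27 and -2.20 in the untreated 231:TKO libraries, and at most 2 neighbours fell as far. Other genes of chromosome 2 in the set also had raised neighbours in untreated cells: the median was 0.48 for the 44 neighbours of ACVR1 and 0.38 to 0.45 for the 27 neighbours of ACVR2A, beside 0.49 and 0.56 for ACVR1 and 0.34 and 0.63 for ACVR2A themselves. With siNT the medians were 0.21 to 0.33 around ACVR1 and 0.04 to 0.18 around ACVR2A. The genes themselves were at 0.77 to 0.83 and 0.52 to 0.77 there. With siMyc the medians were 0.15 to 0.35 and -0.05 to 0.23, beside 0.66 to 0.80 for ACVR1 and 0.51 to 0.66 for ACVR2A. The windows around ACVR1 and ACVR2A overlap.

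**Figure D3:**
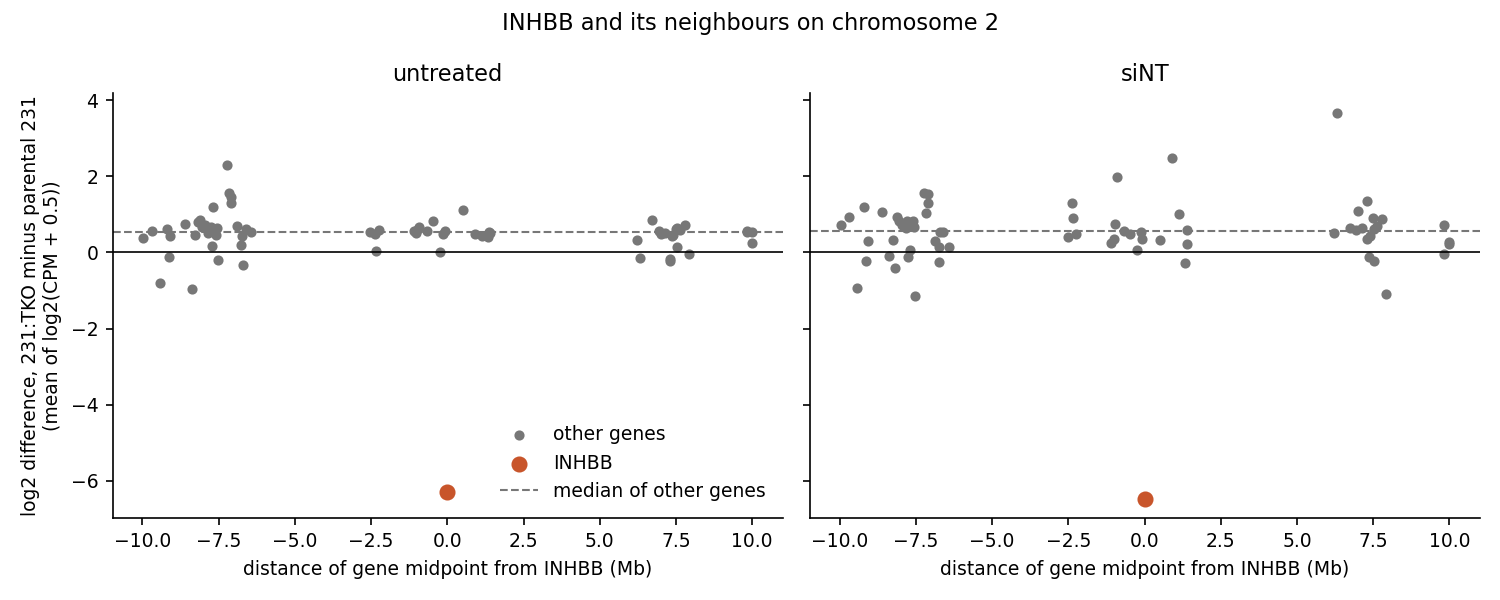
Log2 difference of 231:TKO minus parental 231 (group means of log2(CPM + 0.5)) for INHBB and the 70 other genes with midpoints within 10 Mb, against the distance from INHBB in Mb, in untreated and siNT cells. INHBB lies under -6 in both panels while the dashed median of its neighbours lies above 0.

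Myc knockdown in 231:TKO changed 5 of the 10 mRNAs. INHBB, FST, FSTL1 and TGFBR3 rose and ACVR2B fell at an adjusted p of at most 0.05 (edgeR quasi-likelihood test, 22450 genes tested, of which 13.3% were called higher and 13.9% lower). INHBB went from 0.316, 0.374 and 0.404 CPM to 0.852, 0.898 and 0.743 CPM. This is a rise from 11, 12 and 14 counts to 30, 33 and 30 counts, and the groups did not overlap. Its log2 fold change was 1.18 (SE 0.28, adjusted p = 0.00274 by edgeR), and the level reached stayed under 1 CPM.

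FSTL1 rose by 0.36 (SE 0.05, adjusted p = 6.1e-06) and FST by 0.33 (SE 0.07, adjusted p = 0.00116, edgeR). TGFBR3 rose by 0.31 (SE 0.06, adjusted p = 0.000551, edgeR), from 39.1, 35.8 and 40.7 CPM to 48.8, 46.1 and 48.2 CPM. ACVR2B was at 13.7, 11.7 and 11.5 CPM with siNT and at 9.78, 10.6 and 9.93 CPM with siMyc (-0.28, SE 0.09, adjusted p = 0.0196, edgeR). Its call was lost without 231:TKO+siNT replicate 1 (-0.19, adjusted p = 0.172) and without 231:TKO+siMyc replicate 1 (-0.26, adjusted p = 0.0641, edgeR). In a fit of all 12 siRNA-treated libraries the adjusted p was 0.221 for ACVR2B and 0.239 for TGFBR3 (edgeR), with the same directions.

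FSTL3, INHBA, ACVR1, ACVR1B and ACVR2A did not pass the test in 231:TKO. Their log2 fold changes were 0.15 (95% confidence interval -0.02 to 0.31), 0.17 (-0.09 to 0.44), 0.06 (-0.07 to 0.18), 0.05 (-0.08 to 0.19) and -0.07 (-0.27 to 0.12). FSTL3 passed without 231:TKO+siMyc replicate 3 (0.24, adjusted p = 0.00465, edgeR). TXNIP itself rose after siMyc in 231:TKO by 0.40 (SE 0.09, adjusted p = 0.00247) and in parental 231 by 0.57 (SE 0.09, adjusted p = 0.0458, edgeR).

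In parental 231, none of the 10 genes passed the test after siMyc, where 0.24% of 23728 genes were called higher and 0.354% lower by edgeR. At an unadjusted p under 0.05 there were 5 of the 10 genes and 3462 of all genes. DESeq2 called 3 of the 10 and 4.68% of all genes, and 1 fit of the 12 siRNA-treated libraries called 3 of the 10 and 6.45% of all genes. INHBB was at 73.4, 74.4 and 80.6 CPM with siNT and at 100.9, 101 and 104 CPM with siMyc (0.40, SE 0.09, adjusted p = 0.0875, edgeR). The 3 values after siMyc lay above the 3 after siNT. FSTL3 had a log2 fold change of 0.53 (SE 0.13, adjusted p = 0.112), FSTL1 of 0.37 (SE 0.11, adjusted p = 0.159) and INHBA of 0.33 (SE 0.11, adjusted p = 0.213, edgeR), and these groups did not overlap either.

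The libraries that stood apart bear on this comparison. TGFBR3 was at 23.6 CPM in parental 231+siNT replicate 1 and 30.8 CPM in parental 231+siMyc replicate 3, against 34.8 and 34.9 CPM in the other siNT libraries and 45.8 and 48.2 CPM in the other siMyc libraries. With both of these libraries left out, a choice made after seeing the data, 6 of the 10 genes passed the edgeR test, as did 20.8% of all genes tested. INHBB (0.35, adjusted p = 0.000272), INHBA (0.37, adjusted p = 0.00333), FSTL3 (0.48, adjusted p = 1.7e-05), FSTL1 (0.39, adjusted p = 6.93e-05) and TGFBR3 (0.40, adjusted p = 0.000175) were higher and ACVR2B (-0.36, adjusted p = 0.0217) was lower in that edgeR fit. A factor for these libraries in place of their removal gave the same count of 6, with 26.8% of all genes called. FST was at 0.02 (95% confidence interval -0.09 to 0.14) with both libraries left out and at 0.10 (-0.15 to 0.34) with all libraries.

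**Figure D4:**
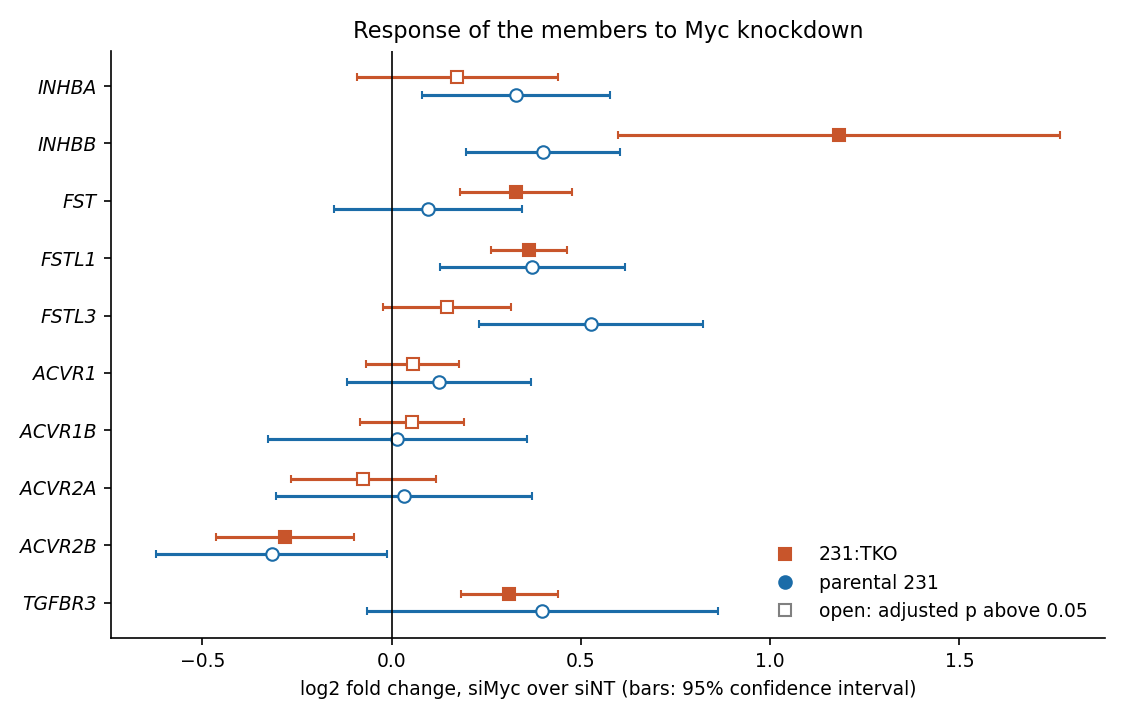
Log2 fold changes of siMyc over siNT in 231:TKO (orange squares) and parental 231 (blue circles) for the 10 genes; bars are 95% confidence intervals and filled symbols passed the edgeR test at an adjusted p of at most 0.05. In 231:TKO 5 symbols are filled, with INHBB farthest to the right at 1.18, and in parental 231 all symbols are open.

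The difference between the responses of the genotypes was tested directly in 1 fit of the 12 siRNA-treated libraries. None of the 10 genes passed, and of all 25812 genes 0% were called higher and 0% lower by edgeR. At an unadjusted p under 0.05 there were 2 of the 10 genes, INHBB and FSTL3, and 1039 of all genes, and DESeq2 called none of the 10 and 0.0232% of all genes. For INHBB the response in 231:TKO minus that in parental 231 was 0.81 (95% confidence interval 0.38 to 1.24), and its adjusted p was at least 0.176 in every alternative. For FSTL3 it was -0.35 (-0.69 to -0.01), with an adjusted p of 0.0278 where a factor was fitted for the libraries standing apart and of 0.127 where they were left out (edgeR), fits that called 0.57% and 0.252% of all genes. For FSTL1 the difference was 0.02 (-0.24 to 0.28), for ACVR2B 0.07 (-0.28 to 0.41) and for TGFBR3 -0.06 (-0.54 to 0.42), which leaves room for differences of either sign.

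The genes whose pattern over the 16 libraries was most like that of INHBB were ranked among 13399 genes by Pearson's r of log2(CPM + 1). They were LINC00261 (0.995), DAPK1 (0.993), AK5 (0.992), TTC9 (0.992) and SLAMF7 (0.991). DAPK1, a death-associated protein kinase, was at 57.8 CPM (SD 1.3) in untreated parental 231 and at 0 in both untreated 231:TKO libraries. SLAMF7, an immune-cell surface receptor, was at 102 CPM (SD 7.1) in parental 231+siNT and 1.17 CPM (SD 0.39) in 231:TKO+siNT. The closest to FST were IL11 (0.970), MITF (0.968), LPCAT1 (0.967), the transcript ENSG00000283162 (0.967) and FOXF2 (0.965). IL11, a cytokine induced by TGF-beta in this cell line, was at 227 CPM (SD 1.3) in untreated parental 231 and 23.0 CPM (SD 7.8) in 231:TKO. The points share genotype and the way reads were counted (single reads or read pairs), and the correlations are a description.

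The rest of the pathway was read from 71 genes in 5 lists, and for these the genotype was tested. In untreated 231:TKO, 7 were higher and 3 lower of 55 tested (edgeR, adjusted p at most 0.05), where 5.43% of all genes were called higher and 4.18% lower. The count changed strongly when any 1 library was left out. Its range over those fits is given below, where the dependence on the processing is described. In each of these fits the lone library is assumed to vary like the remaining pair, which alone supplies the spread. Of 15 SMADs and intracellular regulators 4 rose and 0 fell. SMAD7, the inhibitory SMAD that blocks type I receptors, was at 9.84 CPM (SD 0.91) in parental 231 and 29.9 CPM (SD 2.7) in 231:TKO (1.53, SE 0.13, adjusted p = 0.00753, edgeR). SMAD2 (0.63), SMAD4 (0.62) and the ubiquitin ligase gene SMURF2 (0.56) also rose. Chromosomal neighbours were examined only for the 10 members, so the part of regional shifts in these rises was not tested. Of 9 other receptors and co-receptors tested 1 rose, BMPR2 (0.94, SE 0.10), the type II receptor of BMPs. Of 10 other ligands tested, BMP4 rose (0.82, SE 0.10), and AMH (-0.95, SE 0.17) and GDF15 (-3.09, SE 0.54, from 1.15 CPM) fell. Of 10 extracellular antagonists, carriers and processing genes tested 1 fell: PCSK6, a proprotein convertase, was at 7.45 and 7.59 CPM in parental 231 and had 0 counts in both 231:TKO libraries, at least 72.4-fold lower against a floor of 3 counts per library.

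With siNT, 15 of 63 tested rose and 17 fell, where 16.1% of all genes were called higher and 20.7% lower. With siMyc 13 of 63 rose and 19 fell, where the shares of all genes were 18.8% and 21.7%. SMAD7 was again higher, by 1.88 (SE 0.10) and 1.81 (SE 0.10), and BMPR2 by 0.85 (SE 0.14) and 0.75 (SE 0.13). Of 10 other receptors and co-receptors tested, 3 rose and 2 fell with siNT, and 2 rose and 2 fell with siMyc. TGFBR2 (0.34, SE 0.11) and BAMBI (0.30, SE 0.10) also rose with siNT. The larger receptor changes were downward, in genes of low level. BMPR1B, a type I receptor of BMPs, fell by 4.70 (SE 0.29) with siNT, from 2.33 to 0.0880 CPM, near a floor of 3 counts per library. With siMyc BMPR1B fell by 4.15 (SE 0.37). ENG, which encodes the co-receptor endoglin, fell by 1.89 (SE 0.28) with siMyc, from 1.00 to 0.270 CPM. Of 15 SMADs and intracellular regulators, 4 rose and 0 fell with siNT, and 3 rose and 0 fell with siMyc. SMAD3 rose by 0.58 (SE 0.12, adjusted p = 0.00315, edgeR) with siNT and by 0.51 (SE 0.10, adjusted p = 0.00156, edgeR) with siMyc. In untreated cells SMAD3 was at -0.21 (SE 0.17, not called). SMAD2 (0.05 and 0.02), SMAD4 (0.06 and 0.05) and SMURF2 (-0.18 and -0.24) did not pass the test with siNT or siMyc. Of 11 SMAD target genes tested, 4 rose and 6 fell with siNT, and 3 rose and 6 fell with siMyc. ID2, an inhibitor of basic helix-loop-helix factors and a BMP target, was at 0.276 CPM (SD 0.10) in parental 231+siNT and 12.6 CPM (SD 0.73) in 231:TKO+siNT, yet at 2.29 CPM (SD 0.21) and 2.58 CPM (SD 0.42) in the untreated genotypes. TGFBI, an extracellular matrix protein, rose by 1.17 (SE 0.09) with siNT. TAGLN (-2.55, SE 0.21), a smooth muscle actin-binding protein, and PMEPA1 (-1.49, SE 0.09), a feedback inhibitor of TGF-beta signalling, fell. No ligand of 13 tested rose with siNT and 5 fell, among them TGFB1 (-0.85, SE 0.09) and BMP2 (-4.79, SE 0.34, from 2.22 CPM). In the list of antagonists, carriers and processing genes 4 rose and 4 fell with siNT. They were led by FURIN (1.27, SE 0.10), which cleaves activin and TGF-beta precursors, and by LTBP1 (-1.13, SE 0.13) and HTRA1 (-1.08, SE 0.08). In untreated cells FURIN was at 0.26 (SE 0.07), LTBP1 at -0.22 (SE 0.10), HTRA1 at 0.36 (SE 0.35) and TGFB1 at -0.10 (SE 0.07). TGFBI was at 0.60 (SE 0.18) and TAGLN at 0.02 (SE 0.15) there, and none of these untreated differences was called. The gene models of SMAD7, SMAD3, ZFYVE9, FURIN and FBN1 differ in length between the annotation releases of the siRNA-treated genotypes.

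**Figure D5:**
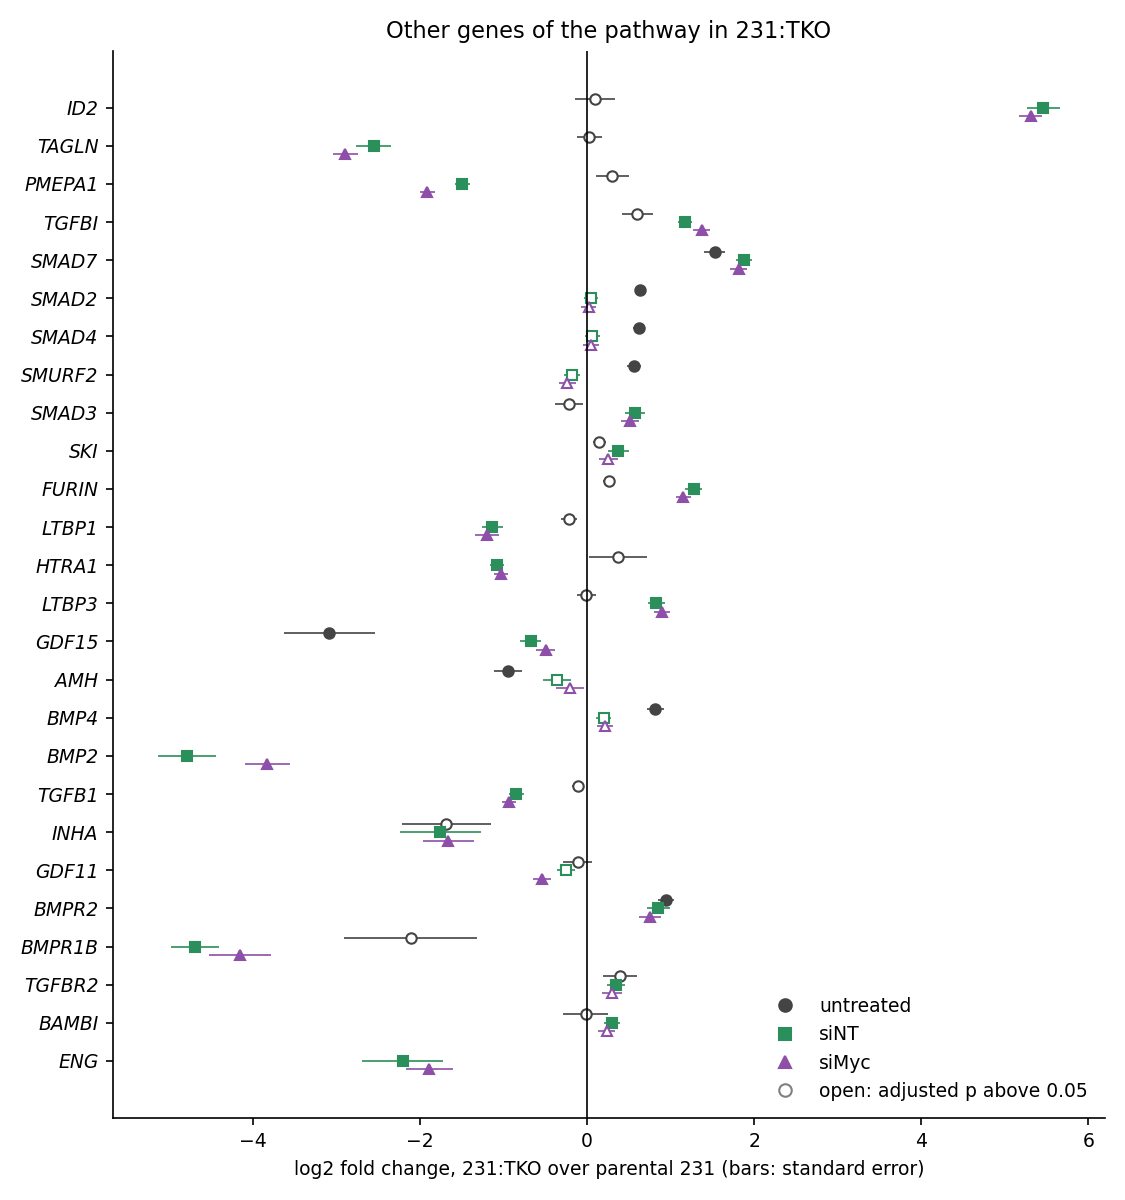
Log2 fold changes of 231:TKO over parental 231 for 26 other genes of the pathway in untreated, siNT and siMyc cells; bars are standard errors and filled symbols passed the edgeR test at an adjusted p of at most 0.05. SMAD7 (1.53 to 1.88) and BMPR2 (0.75 to 0.94) are higher in all 3 states, while ID2, TAGLN and PMEPA1 have open symbols untreated and filled ones with siNT and siMyc.

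After siMyc in 231:TKO, 15 of 62 other pathway genes rose and 4 fell, where 13.3% of all genes were called higher and 13.9% lower. In the fit of the 12 siRNA-treated libraries 8 in all passed, as did 9.66% of all genes. In the list of antagonists, carriers and processing genes, 6 of 14 rose and 0 fell, led by the latent TGF-beta binding protein gene LTBP2 (0.68, SE 0.07), the fibrillin gene FBN1 (0.39, SE 0.06) and LTBP3 (0.38, SE 0.07). TGFB2 (0.47, SE 0.06) and BMP4 (0.35, SE 0.05) rose among the ligands, where AMH (-0.57, SE 0.13) and GDF11 (-0.40, SE 0.08) fell. TGFBR2 (0.32, SE 0.04), the type II TGF-beta receptor, and NRP1 (0.20, SE 0.05) rose. SMAD1 (-0.32, SE 0.09) and SMAD5 (-0.25, SE 0.07), which carry BMP signals, fell. Of the SMAD target genes 4 rose and 0 fell, TGFBI (0.46, SE 0.04), ID2 (0.47, SE 0.08), SNAI2 (0.39, SE 0.07) and CDKN1A (0.21, SE 0.05). In parental 231 none of 63 passed by edgeR (14 at an unadjusted p under 0.05, and 7 by DESeq2), and 25 passed with the libraries standing apart left out, where 20.8% of all genes did. For the difference between the genotypes none of 65 passed by edgeR (5 at an unadjusted p under 0.05, and 1 by DESeq2).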

How the data were processed

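RNA-seq was analysed in 16 libraries of MDA-MB-231 cells. Reads were mapped by the authors with STAR to GRCh38, and featureCounts 1.6.3 assigned them to Ensembl genes on the reverse strand by largest overlap. They deposited raw counts per gene without normalization, and per the file headers the release was 102, or 104 for siRNA-treated parental 231. Only the 60620 identifiers shared by both releases were used. Samples were grouped by their labels.

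Genes with more than 5 counts summed over a comparison's libraries were tested with the quasi-likelihood test of edgeR 4.0.16 in R 4.3.3, with TMM scaling, robust dispersion estimates and Benjamini-Hochberg adjustment over all genes tested, at an adjusted p of at most 0.05. All 10 members passed this filter in every comparison. Scripts were tested on simulated data. Alternatives were DESeq2 1.42.0, its size factors, other count filters, a replicate block, 1 fit of the 12 siRNA-treated libraries, leaving out each library, and, added after seeing the data, the libraries standing apart left out or given a factor. Against a group at 0 counts the floor was 3 counts per library, which covers counting error only. The members and gene lists were chosen with earlier results of these data known. Other pathway genes were named where they had up to the 4 largest changes of their list among those called with at least 1 CPM in a group, and for INHBB and FST the 5 genes most alike over all libraries. No protein sequences were used here. The values of 1 gene that this rule named are not reported here.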

Additional observations from a re-analysis of the deposited data

Results flagged for a closer look

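For PMEPA1 and PCSK6, every 231:TKO library lay on one side of parental 231 in untreated cells and on the other side in a siRNA-treated state, a difference that was not tested. PMEPA1 was at 53.0 and 57.8 CPM in untreated parental 231 and at 58.9 and 85.0 CPM in 231:TKO (log2 fold change 0.30, SE 0.19, not called), but at 96.0 to 103 CPM in parental 231+siNT and 35.5 to 36.8 CPM in 231:TKO+siNT (-1.49), and it fell in 231:TKO with siMyc too (-1.91). PCSK6 was at least 72.4-fold lower in untreated 231:TKO, where both libraries had 0 counts, and lay at 0.179 to 0.263 CPM in parental 231+siMyc and 0.517 to 0.619 CPM in 231:TKO+siMyc (log2 fold change 1.37), whereas the groups overlapped with siNT. Untreated libraries hold single reads and siRNA-treated libraries read pairs, and the part of this in the reversals was not tested.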

How the results depend on the processing

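After siMyc in 231:TKO, the 5 calls among the 10 genes became 3 in 1 fit of the 12 siRNA-treated libraries, and the 19 among other pathway genes became 8. In parental 231, the 0 calls among the 10 genes became 3 with DESeq2, 3 in the fit of the 12 libraries, 6 with parental 231+siNT replicate 1 and parental 231+siMyc replicate 3 left out and 6 with a factor for them. The 0 calls among other pathway genes became 7 with DESeq2, 2 without the count filter, 1 with more than 5 counts required in every library, 11 in the fit of the 12 libraries, 25 and 31 with those libraries left out or given a factor, and 0 to 1 without each library. For the difference of the responses, 0 became 1 among the 10 genes with the factor, and 0 became 1 with DESeq2, 2 with the libraries left out and 2 with the factor among the other genes. In untreated 231:TKO, 10 other pathway genes were called and 0 to 32 without each library, where the lone library left in a group is assumed to vary like the other pair. The median log2 fold change of the 10 genes ranged from -0.59 (without 231:TKO replicate 1) to 0.053 (without 231:TKO replicate 2) untreated, from -0.32 to -0.16 with siNT and from -0.39 to -0.20 with siMyc when each library was left out. Where no share of all genes is given for a fit, nothing is read from its count. The causes were not tested.

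Libraries were not treated as paired by replicate number. Same-numbered libraries correlated below 0.1 in at least 1 pair of every comparison. These correlations are of deviations from the means of small groups, so they cannot settle whether libraries were paired. With a replicate block, 5 of the 10 genes were called after siMyc in 231:TKO and 0 in parental 231, and 20 and 0 other pathway genes. In 231:TKO against parental 231, 8, 31 and 29 other pathway genes were called untreated, with siNT and with siMyc. The share of all genes called in these block fits is not given here, so nothing is read from these counts. No called value reversed. Depth limits INHBB in 231:TKO, which rests on 10 to 33 counts per library.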

Other observations

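The nearest measured genes on either side of each of the 10 genes, with a mean of at least 1 CPM, were read as a description with no test. PALM, to the right of FSTL3 and encoding a membrane-associated phosphoprotein, was at 11.8 CPM (SD 2.6) in untreated parental 231 and 0.701 CPM (SD 0.94) in 231:TKO (n = 2 each), and at 17.1 CPM (SD 1.8) and 5.67 CPM (SD 0.73) with siNT (n = 3 each). RNF126, on the other side of FSTL3, was at 73.3 CPM (SD 1.8) and 63.3 CPM (SD 4.1) untreated. CCDC148, to the right of ACVR1, was at 3.44 CPM (SD 0.78) in untreated parental 231 and 0.645 CPM (SD 0.53) in 231:TKO, whereas ACVR1 itself was higher there. NDUFB4, a respiratory complex I subunit gene beside FSTL1, was at 31.9 CPM (SD 2.0) and 47.2 CPM (SD 0.72) untreated. The antisense transcript ACVR2B-AS1 was at 0.842 to 2.09 CPM over all libraries.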
